A study of Mus musculus with 16 samples.

Results

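Mitochondria carry ribosomes of their own, built from a large and a small subunit whose proteins are all encoded in the nucleus. The 76 genes described here are every row of the deposited table whose symbol begins with Mrpl or Mrps and a digit, the naming used for these mitochondrial ribosomal proteins. Of them 47 belong by symbol to the large subunit (Mrpl) and 29 to the small subunit (Mrps). All 76 reached 1 RPKM, a read count scaled to gene length and library total, in at least 4 of 16 libraries, so no member was lost to this filter. They stand among 10171 genes that passed it and 23440 that the table lists.

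The libraries were poly(A) RNA of the gastrocnemius, a calf muscle made mainly of fast fibres, from male C57Bl6/J mice aged 20 weeks. Wild-type mice (WT) and mice homozygous for a knockout of Il13, written Il13-/- and called KO below, were either left untrained or ran daily on a treadmill for 5 weeks. Each of these 4 groups held 4 mice, with 1 library for each mouse, so p-values measure the spread between mice. The comparisons asked how training, the loss of interleukin-13 and their combination bear on these transcripts.

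The mitochondrial ribosome translates the few messages of the mitochondrial genome, which code for core subunits of the respiratory chain and of ATP synthase. Its proteins are made in the cytosol and imported, and the subunits are assembled around ribosomal RNAs that the mitochondrial genome encodes. Many of the proteins descend from bacterial ribosomal proteins, while others are found in mitochondria only. Endurance training is known to raise the mitochondrial content of muscle, and the transcription factors NRF1, GABP (an ETS factor), YY1 and the oestrogen-related receptors are known regulators of nuclear genes for mitochondrial proteins.

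The recovered reads of a library numbered 16307025 to 20074677 in all, and a member had between 153 and 3451 reads in a library. Il13 had 0 reads in all 8 WT libraries and 0 to 2 in KO libraries, where a count of 0 allows up to 3 reads (counting error only), so this gene does not bear on the genotype labels. The 8 markers of fast skeletal muscle summed to between 6.773e+04 and 9.046e+04 RPKM in every library, and none was at 0. A pair of libraries stood at the ends of the series. In WT trained 1, 69 of the 76 members lay above their own median over all libraries, and in KO untrained 4 only 2 did. The mean over all tested genes was also highest in WT trained 1 (2.91 on the log2 scale) and lowest in KO untrained 4 (2.70), and limma gave these libraries weights of 0.309 and 0.529 when weights were estimated from scatter. KO trained 2 came close to KO untrained 4, with 5 members above their median and a mean of 2.71, but its weight was 1.12.

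The levels of the members spanned a wide range, with the same few genes on top in every group. RPKM is scaled to length, so the order of levels rests on the length taken for each gene, recovered here along with the reads. Mrpl17, at 6712 bases, had 573 to 707 reads in a library, and Mrpl23, at 582 bases, had 599 to 791. Their mean levels were 5.25 and 67.5 RPKM. In the large subunit the mean over 16 libraries ran from 3.95 RPKM to 245, with a median of 24.5. Mrpl42 (chr10:95480806-95501927, minus strand, mm10), a protein found in mitochondria only, was the most abundant at 245 RPKM. Its lowest library, at 208 RPKM, lay above the highest library of the next gene, Mrpl30, at 115. Mrpl30 and Mrpl12 followed at mean levels of 101.8 and 95 RPKM and overlapped each other across libraries. Mrpl12 forms the flexible stalk that binds translation factors and is also known to bind the mitochondrial RNA polymerase.

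At the other end of the large subunit stood Mrpl17 at a mean of 5.25 RPKM, Mrpl1, a protein of the mobile stalk at the tRNA exit site, at 4.88 and Mrpl19 at 3.95. The ranges of these 3 genes overlapped. In the small subunit the mean level ran from 3.01 to 131 RPKM, with a median of 21.6. Mrps21 (chr3:95862652-95870619, minus strand) led at 131 RPKM, with its lowest library at 112 above the highest of Mrps36 at 63.9. Mrps36 (53.1 RPKM) and Mrps18a (51.0 RPKM) followed and could not be ordered beyond their spread. Mrps36 is now known as a component of the alpha-ketoglutarate dehydrogenase complex rather than of the ribosome, and Mrps18a sits in the large subunit despite its name. The lowest were Mrps22 at 11, Mrps2 at 8.35 and Mrps25 at 3.01 RPKM, and the highest library of Mrps25 (3.40) lay below the lowest of Mrps2 (7.32). Members varied little between mice of a group, with a median coefficient of variation from 5.3% in KO trained to 8.39% in KO untrained mice, where the medians over all tested genes were 8.39% and 9.78%. The largest shift of any member in the order of all 76 levels between groups was 7 places, for Mrpl50.

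**Figure D1:**
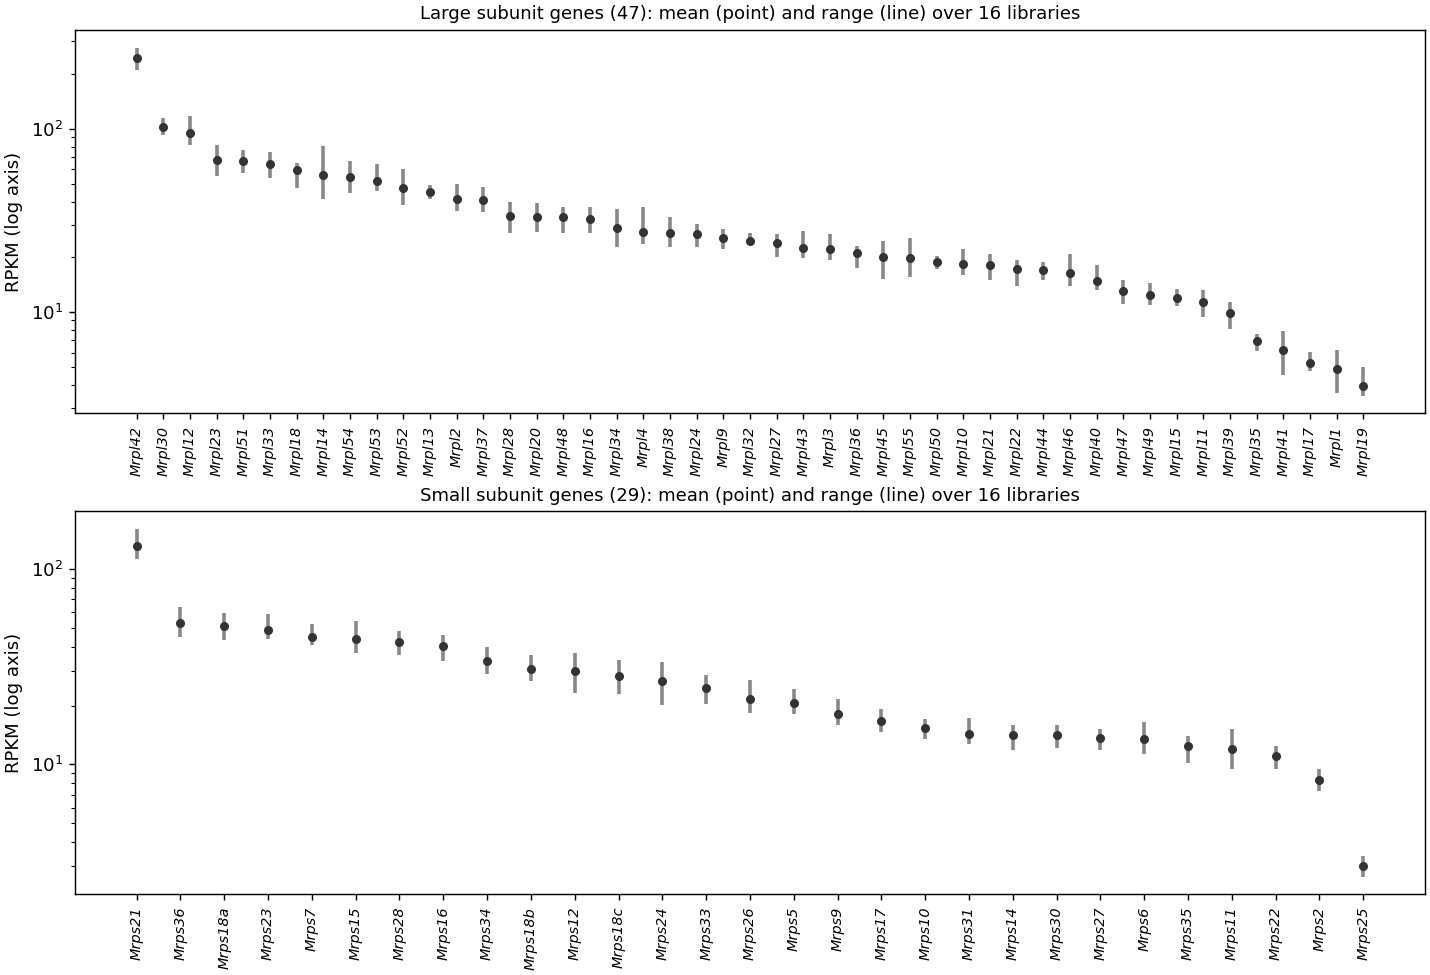
Mean RPKM over 16 libraries (points, log axis) and the range from the lowest to the highest library (lines) for the 47 large subunit genes (top) and the 29 small subunit genes (bottom), ordered by mean. Mrpl42 at 245 RPKM and Mrps21 at 131 stand clear of the next gene, and most members lie between 10 and 100.

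The promoters of these genes share short sequences that are known as binding motifs of regulators of mitochondrial genes. The RefSeq promoter table (GRCm38.p6, the mm10 assembly; 250 bases before to 50 after the start) held 67 of the 76 members, and both strands were searched. The ETS motif CCGGAAG stood in 24 of 67 members (35.8%), against 9.93% of 27025 genes in the table and 21% of the 7680 that passed the filter. The NRF1 motif in its looser form (GCGC, any base, then TGCGC), which includes the strict form with A as that base, stood in 12 members (17.9%), against 5.19% and 12.5%. The YY1 motif AAGATGGC stood in 12 members (17.9%), against 3.19% and 5.89%. The motif TCAAGGTCA of oestrogen-related receptors stood in 0 of 67, against 0.466% and 0.312%, so these letters are not in these windows. At least 1 of the 4 motifs stood in 41 members (61.2%), against 16.8% and 34.6%. A match describes letters only. The windows below are of members whose levels or differences are given here. They run 5′ to 3′ on the strand of the gene with the motif in capitals (CTTCCGG, GCCATCTT and, for Mrpl44 and Mrpl45, the NRF1 match are the motifs read on the other strand), and positions count from the start site as base 1, with no base 0. The NRF1 windows are of Mrpl12 (chr11:120484531-120484590, plus strand, motif at -81 to -72), Mrpl44 (chr1:79775958-79776017, plus, -35 to -26), Mrpl45 (chr11:97315653-97315712, plus, -38 to -29) and Mrps21 (chr3:95871571-95871630, minus, -91 to -82). RefSeq start sites can differ from the 5′ end of a gene as the expression data place it. For Mrps21 that end is base 95870619, and the start site used for its window lies further upstream. The ETS windows are of Mrpl3 (chr9:105053224-105053267, plus, -19 to -13), Mrpl52 (chr14:54426837-54426893, plus, -47 to -41) and Mrps18c (chr5:100798578-100798634, plus, -156 to -150), and the YY1 window is of Mrps12 (chr7:28741988-28742045, minus, -199 to -192).
Mrpl12: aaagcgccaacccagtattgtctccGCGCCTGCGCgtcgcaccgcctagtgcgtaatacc
Mrpl44: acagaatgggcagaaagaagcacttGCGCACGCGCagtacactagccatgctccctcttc
Mrpl45: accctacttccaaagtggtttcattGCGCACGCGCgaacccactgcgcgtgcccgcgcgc
Mrps21: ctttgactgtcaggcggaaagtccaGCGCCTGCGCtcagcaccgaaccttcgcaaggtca
Mrpl3: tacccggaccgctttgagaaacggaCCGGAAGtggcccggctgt
Mrpl52: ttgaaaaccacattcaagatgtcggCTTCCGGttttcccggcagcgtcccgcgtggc
Mrps18c: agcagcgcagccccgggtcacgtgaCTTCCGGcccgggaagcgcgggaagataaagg
Mrps12: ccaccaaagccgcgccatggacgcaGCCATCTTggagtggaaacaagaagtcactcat

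Levels were then compared between KO and WT among trained mice, where the members leaned furthest in one direction. In this comparison 73 of 76 members (96.1%) were lower in KO, against 65.2% of all tested genes. The median difference was -0.17 on the log2(RPKM + 0.1) scale in the large subunit and -0.16 in the small subunit, against -0.05 over all tested genes. No member passed the test on its own: limma, with Benjamini-Hochberg adjustment over all 10171 genes, called 0 of 76 at an adjusted p under 0.05, where 0.0885% of all genes were called. At an unadjusted p under 0.05, 35 members (46.1%) were lower, 25 of the large and 10 of the small subunit, against 9.65% of all genes. None was higher, against 4.21%. Voom on the recovered reads also called 0 of 76. With median-of-ratios scaling or quantile normalization 68 of 76 were lower, where the medians over all genes were -0.0006 and -0.0013. At an unadjusted p under 0.05, 25 and 22 were lower in these settings, against 6.92% and 6.48% of all genes.

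The smallest p belonged to Mrpl42. It measured 278, 259, 258 and 251 RPKM in WT trained and 229, 208, 217 and 223 in KO trained mice. All 4 KO values lay below all 4 WT values, in a gene with at least 2575 reads in every library. The log2 difference was -0.25 (SE 0.05), a ratio of 0.839, with an adjusted p of 0.127 from limma.

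Mrpl14 (chr17:45686372-45698495, plus strand), which lies at the face where the subunits meet, measured 80.9, 60.5, 57.7 and 64.8 RPKM in WT trained and 50.4, 46.4, 52.7 and 51.0 in KO trained mice. The groups did not overlap, and WT trained 1 held the highest value. Its log2 difference was the largest of all members at -0.39 (SE 0.11, limma adjusted p = 0.2), and -0.28 without WT trained 1. Mrpl41 (chr2:24972470-24975098, minus strand), found in mitochondria only, measured 7.87, 6.07, 7.11 and 6.39 RPKM in WT trained and 5.16, 4.54, 5.98 and 5.88 in KO trained mice. It too did not overlap between groups, and it differed by -0.34 (SE 0.10, limma adjusted p = 0.204).

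In the small subunit Mrps17 (chr5:129715528-129718691, plus strand), a protein with a bacterial counterpart, had the smallest p. It measured 19.3, 18.7, 17.0 and 18.5 RPKM in WT trained and 15.5, 16.3, 15.8 and 16.1 in KO trained mice. The 4 KO values were packed within 1 RPKM and all lay below the WT values. The log2 difference was -0.20 (SE 0.06, limma adjusted p = 0.206). Mrps28 (chr3:8802146-8923857, minus strand), which has a bacterial counterpart, measured 48.0, 42.9, 44.2 and 44.8 RPKM in WT trained and 41.6, 36.4, 40.7 and 39.6 in KO trained mice, again with no overlap (log2 -0.19, SE 0.06, limma adjusted p = 0.239). In all, 22 members, 17 large and 5 small, were lower in every KO trained mouse than in any WT trained mouse, against 5.86% of all tested genes, and 0 were higher in every one, against 2.63%.

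**Figure D2:**
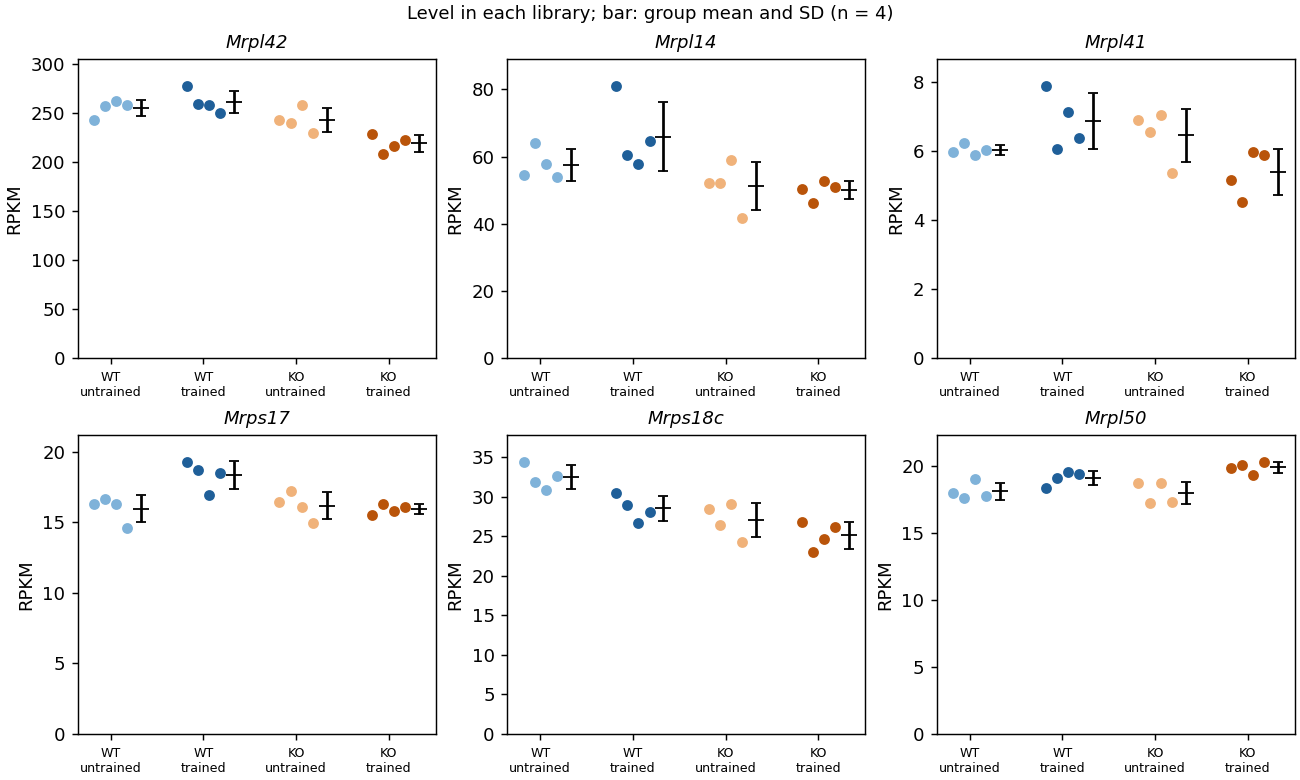
RPKM of 6 members in each library by group (points; axes start at 0), with the group mean and SD beside them (n = 4). Mrpl42, Mrpl14, Mrpl41 and Mrps17 are lower in all 4 KO trained than in all 4 WT trained mice, Mrps18c is lower in KO in untrained mice, and Mrpl50 runs slightly higher after training.

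The 3 members that were not lower in KO trained mice, named after their values were seen, were Mrpl1 (log2 0.15), Mrpl50 (0.06) and Mrpl33 (0.05). Mrpl50 measured 18.3, 19.1, 19.5 and 19.4 RPKM in WT trained and 19.9, 20.1, 19.3 and 20.3 in KO trained mice, which overlap. The lowest value among members belonged to Mrpl14 and the highest to Mrpl1, so the members spanned -0.39 to 0.15. Proteins with a bacterial counterpart had a median of -0.15 (19 of 46 lower at an unadjusted p under 0.05) and those found in mitochondria only -0.18 (15 of 29).

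**Figure D3:**
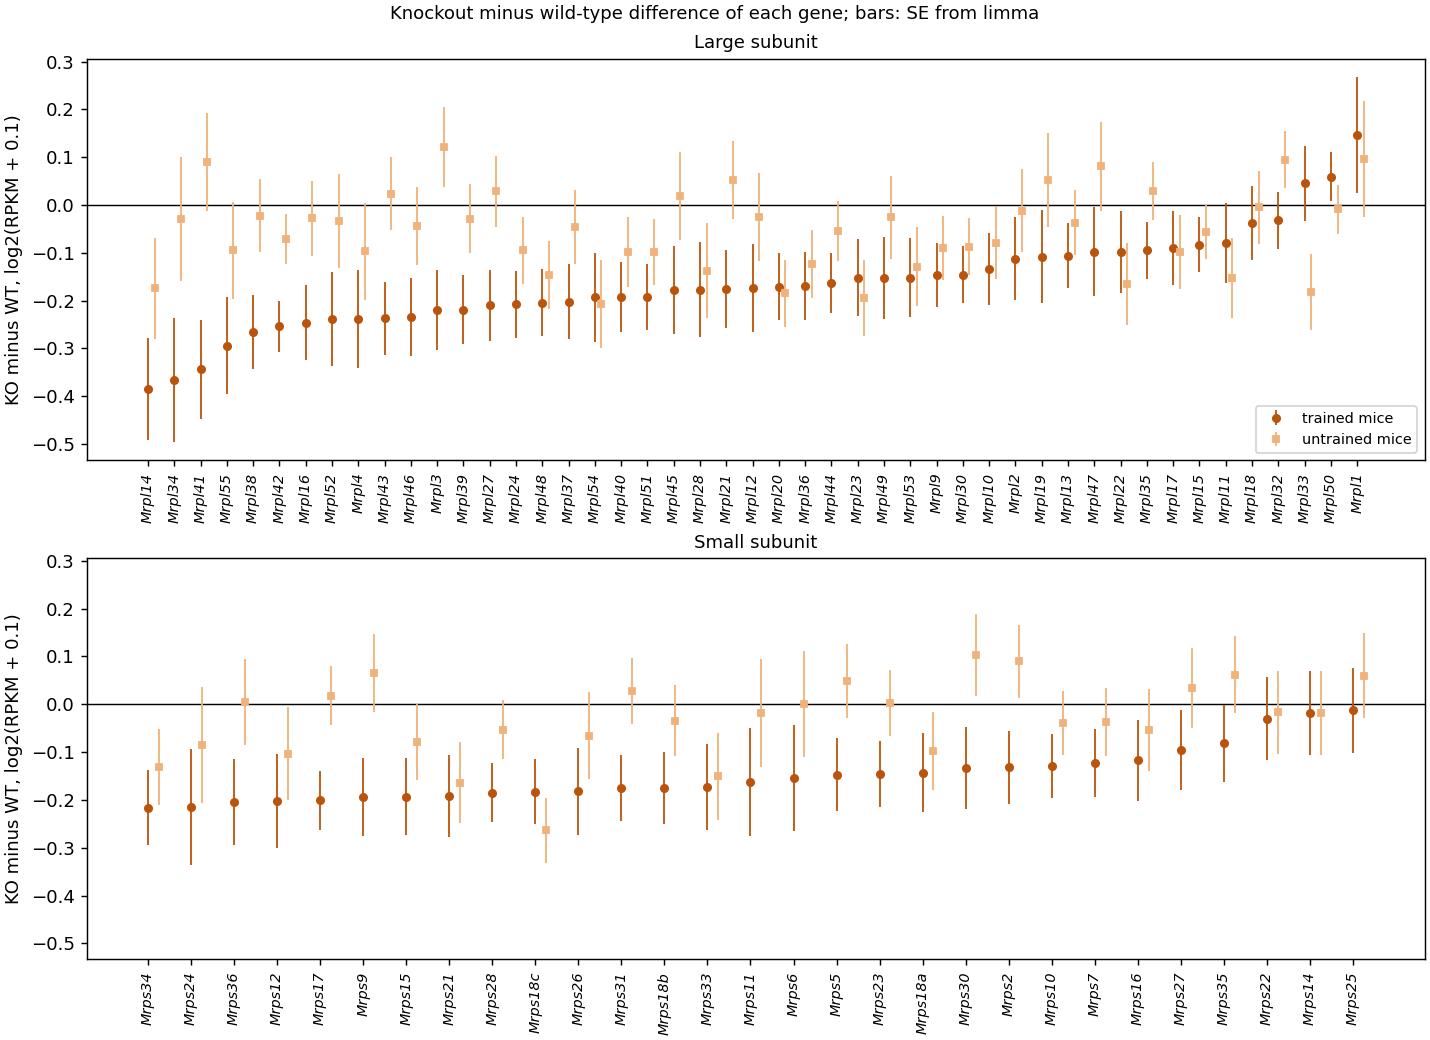
KO minus WT difference on the log2(RPKM + 0.1) scale for every member in trained mice (circles) and untrained mice (squares), with SE bars from limma, ordered by the value in trained mice. In trained mice 73 of 76 circles lie below 0, while the squares scatter on both sides with 53 below.

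Means over a subunit put each library on 1 scale. In WT trained mice the mean log2 value of the large subunit was 4.83, 4.66, 4.69 and 4.68, and in KO trained mice 4.58, 4.49, 4.56 and 4.57. For the small subunit the values were 4.66, 4.48, 4.55 and 4.52 in WT trained and 4.44, 4.35, 4.39 and 4.43 in KO trained mice. Every KO trained library lay below every WT trained library in both subunits. Taken relative to the mean of all tested genes of the same library, the large subunit still did not overlap, from 1.87 to 1.93 in WT trained and from 1.76 to 1.86 in KO trained mice. The small subunit overlapped on that scale, from 1.69 to 1.77 and from 1.61 to 1.72. Group means on it in trained mice were 1.91 in WT and 1.80 in KO for the large subunit, and 1.74 and 1.65 for the small. In untrained mice they were 1.87 in WT and 1.80 in KO for the large subunit, and 1.72 and 1.68 for the small, with ranges that overlap. The large minus small difference stayed between 0.11 and 0.18 in all 16 libraries. The mean of all tested genes also moved, from 2.70 in KO untrained 4 to 2.91 in WT trained 1. The steady difference thus does not show that the subunits moved together apart from all genes.

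**Figure D4:**
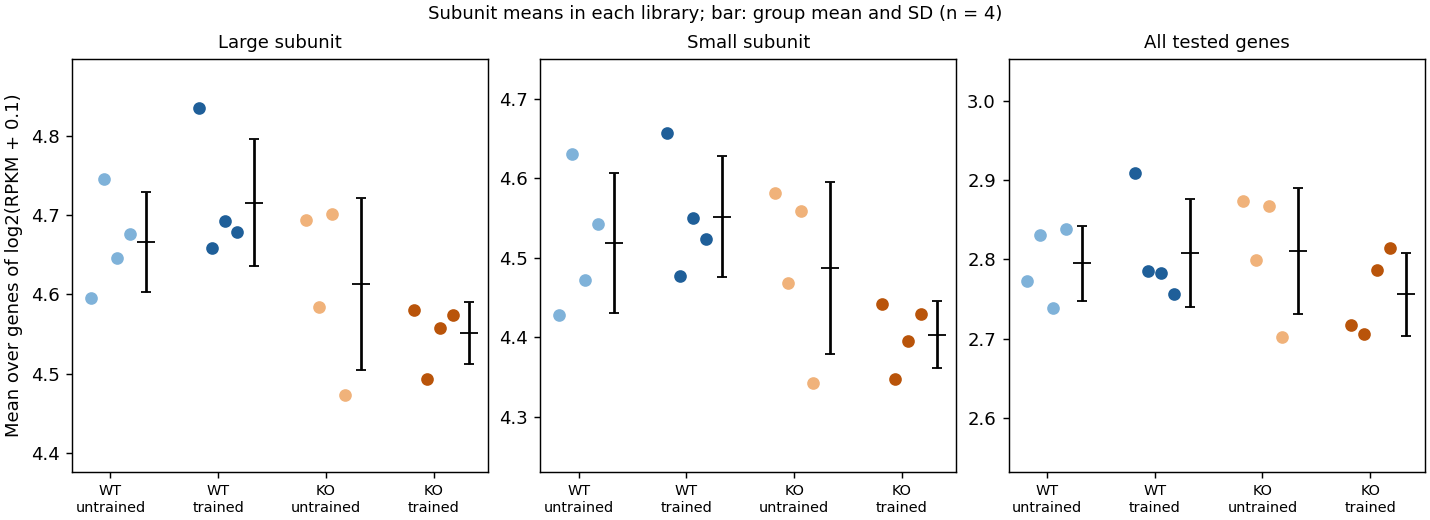
Mean of log2(RPKM + 0.1) over large subunit genes, small subunit genes and all tested genes in each library (points), with the group mean and SD beside them (n = 4); each panel spans the same height. KO trained libraries lie below WT trained ones in both subunits, and WT trained 1 is highest and KO untrained 4 lowest in all 3 panels.

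Without WT trained 1 the count lower at an unadjusted p under 0.05 was 19 of 76 (all genes 4.52%), with 72 of 76 below 0 and medians of -0.13 and -0.11, and without KO trained 2 it was 22 (all genes 5.61%), with 71 below 0. Markers of other cells differed in the same comparison: all 10 genes of slow and oxidative fibres were lower in KO trained mice (median -0.98), summing to 1254 to 1654 RPKM in WT and 641 to 1418 in KO, all 8 tested of 9 tendon genes were lower (median -0.74; 209 to 273 against 99.6 to 232 RPKM), and so were all 6 endothelial genes (median -0.18; 71.1 to 88.9 against 63.9 to 69.7 RPKM). None of these marker genes was at 0 in all libraries, and their part in the result was not tested. In bulk muscle, fewer cells of a type and less RNA per cell cannot be told apart.

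Among untrained mice the members lay closer together. Of 76, 53 were lower in KO, against 48.6% of all tested genes, with medians of -0.05 in the large and -0.02 in the small subunit against 0.00 over all genes. Limma called 0 members, where 0.0492% of all genes were called, and voom called 0. Before adjustment 5 members were lower at a p under 0.05, against 2.99% of all genes, and 0 higher, against 3.22%. That count ran from 1 without KO untrained 4 (all genes 1.51%) to 8 without KO untrained 3 (all genes 4.2%). All 5 were among the 32 members under 1000 bases, whose median of -0.08 was close to the -0.09 of the 779 tested genes of such length, 11.3% of which were lower at that p. Skeletal muscle markers were also lower in KO, 7 of 8 with a median of -0.12 and 4 at an unadjusted p under 0.05. Slow and oxidative fibre genes went the other way, with 10 of 10 higher in KO (median 0.56), as did 7 of 8 tendon genes (0.42). Higher too were 7 of 7 adipocyte genes (0.73), 5 of 5 tested nerve genes (0.54) and 5 of 5 macrophage genes (0.26), while endothelial genes had 3 higher and 3 lower. The part of these cells in the members' values was not tested. KO untrained 4, the library with the lowest subunit means, carried part of the members' lean: without it 37 of 76 members were lower. The small subunit median was then 0.03 and the large subunit median -0.01, beside 0.03 over all genes.

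Mrps18c, which takes the place of bacterial protein S18 in the small subunit, stood first among untrained mice. It measured 34.4, 31.9, 30.8 and 32.7 RPKM in WT untrained and 28.5, 26.5, 29.1 and 24.3 in KO untrained mice. All KO values lay below all WT values, and the log2 difference was -0.26 (SE 0.07, limma adjusted p = 0.78). Mrpl20 measured 36.6, 34.8, 34.4 and 39.5 RPKM in WT untrained and 32.5, 32.4, 32.8 and 30.02 in KO untrained mice, and Mrpl23, at the exit of the peptide tunnel, 71.0, 76.1, 81.2 and 70.4 in WT and 66.3, 64.4, 68.5 and 61.6 in KO. These were the only 3 members whose groups did not overlap here, all lower in KO, against 2.37% of all genes (1.58% were higher without overlap). Their log2 differences of -0.19 each (SE 0.07 and 0.08) had limma adjusted p-values of 0.78.

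Averaged over both training states, 72 of 76 members were lower in KO, against 59.6% of all tested genes, with medians of -0.12 in the large and -0.09 in the small subunit against -0.02. Limma called 0 of 76, against 0.0787% of all genes, and voom 0. Lower at an unadjusted p under 0.05 were 32 (42.1%), against 8.2%, and 0 were higher, against 3.97%. Of these 32, 18 were among the 32 members under 1000 bases (56.2%, median -0.13), where 29% of all tested genes of such length were lower (median -0.10), and 14 among the 44 longer members (31.8%, median -0.09), where 6.33% of longer genes were (median -0.02). The smallest p was that of Mrps18c (log2 -0.22, SE 0.05, limma adjusted p = 0.182), followed by Mrpl42 (-0.16, SE 0.04, adjusted p = 0.262) and Mrpl14 (-0.28, SE 0.08, adjusted p = 0.297). Mrps34, which is found in mitochondria only, measured 33.8, 39.9, 31.7 and 38.7 RPKM in WT untrained, 39.5, 33.96, 35.2 and 34.9 in WT trained, 34.8, 33.2, 34.4 and 28.95 in KO untrained and 31.6, 30.1, 29.3 and 32.4 in KO trained mice. Its trained groups did not overlap and its untrained groups did, and averaged over training it differed by -0.17 (SE 0.06, limma adjusted p = 0.304). The count of 32 was 19 without KO untrained 4 (all genes 5.23%), 20 without WT untrained 2 (5.49%) and 21 without KO trained 2 (5.7%), and 16 (3.37%) with WT trained 1 and KO untrained 4 both set aside, a setting chosen after seeing the data.

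Training in WT mice was compared next. Limma called 0 members, where 0.187% of all genes were called, and voom called 0. The medians were 0.06 in the large and 0.03 in the small subunit, against 0.01 over all tested genes, and 50 of 76 members were higher after training, against 52.4% of all genes. At an unadjusted p under 0.05, 6 members were higher and 2 lower, against 6.11% and 5.71% of all genes, so the members lay near the background. Without WT trained 1 the large subunit median was 0.02 and the small subunit median 0.01, against -0.03 over all genes, and 8 members were lower at an unadjusted p under 0.05 where 12.4% of all genes were. Slow and oxidative fibre genes were higher in trained WT mice in 10 of 10 cases (median 1.20, all at an unadjusted p under 0.05), tendon genes in 7 of 8 (median 0.81), and skeletal muscle markers were lower in 7 of 8 (median -0.24). Their part in the members' values was not tested.

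Mrpl45, which sits at the tunnel exit and tethers the ribosome to the inner membrane, measured 17.1, 19.6, 18.4 and 18.5 RPKM in WT untrained and 24.4, 21.5, 22.0 and 21.6 in WT trained mice. The groups did not overlap, and the log2 difference was 0.28 (SE 0.09, limma adjusted p = 0.209). Mrps17 measured 16.3, 16.7, 16.3 and 14.6 RPKM in WT untrained mice, all below the WT trained values given above (log2 0.20, SE 0.06, limma adjusted p = 0.169). Mrpl3, close to the peptidyl transferase centre, had values of 19.1, 22.0, 19.5 and 22.6 RPKM untrained and 26.6, 23.6, 22.4 and 24.1 trained, which overlap (log2 0.22, SE 0.08, limma adjusted p = 0.307). Mrps18c went the other way, with 30.4, 28.9, 26.7 and 28.04 RPKM in WT trained mice, all below the untrained values (log2 -0.19, SE 0.07, limma adjusted p = 0.268). Mrps9, a protein of the small subunit head, measured 16.6, 18.1, 16.2 and 17.99 RPKM in WT untrained and 20.4, 18.4, 20.3 and 19.3 in WT trained mice, with no overlap (log2 0.18, limma adjusted p = 0.382). In KO mice Mrps9 measured 17.8, 17.3, 21.6 and 15.9 RPKM untrained and 16.6, 16.5, 16.6 and 18.9 trained, which overlap. In all 6 members were higher and 1 lower with no overlap, against 3.76% and 2.62% of all genes.

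In KO mice 64 of 76 members were lower after training, against 64.9% of all tested genes. The medians were -0.06 in the large and -0.08 in the small subunit, against -0.06. This lean, like that of all genes, depended on the scaling. With median-of-ratios scaling 52 of 76 lay below 0 and with quantile normalization 45, where the medians over all genes were -0.0103 and -0.0015. Limma called 0 members and 0% of all genes, and voom 0 members. At an unadjusted p under 0.05, 6 members were lower and 1 higher, against 8.9% and 4.85% of all genes, and with no overlap between groups likewise 6 lower and 1 higher, against 5.43% and 4%. The count of lower members at an unadjusted p under 0.05 ran from 2 without KO trained 2 (all genes 5.77%) to 18 without KO untrained 4 (all genes 15%), so the background moved with it. The medians ran from -0.12 and -0.14 without KO untrained 4 (all genes -0.09) to -0.03 and -0.04 without KO untrained 3 (all genes -0.03). With WT trained 1 and KO untrained 4 set aside, a setting chosen after seeing the data, limma called 4 members and 384 of all genes.

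Mrpl52 measured 54.1, 47.1, 52.0 and 45.7 RPKM in KO untrained and 40.3, 38.4, 39.4 and 45.2 in KO trained mice. All trained values were below all untrained values (log2 -0.28, SE 0.10, limma adjusted p = 0.262). The 1 higher member, Mrpl50, measured 18.7, 17.3, 18.7 and 17.3 RPKM in KO untrained mice, below every KO trained value (log2 0.15, SE 0.05, limma adjusted p = 0.262). Mrps12, of the decoding centre, had values of 32.2, 31.3, 28.1 and 31 RPKM untrained and 26.5, 25.8, 23.1 and 29.96 trained, which overlap (log2 -0.22, SE 0.10, limma adjusted p = 0.33). Mrps21 measured 133.8, 127.5, 142.7 and 117.9 RPKM untrained and 116.8, 114.2, 114.6 and 112.3 trained, with no overlap (log2 -0.19, SE 0.09, limma adjusted p = 0.347).

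The difference of the training responses, KO minus WT, asks whether training acted differently in KO and WT mice. The comparisons given here share groups of mice (KO against WT in trained mice uses the same WT trained libraries as training in WT), so they are not independent of one another. Limma called 0 members and 0% of all genes, and voom 0 members. Of 76 members 65 lay below 0, against 61.6% of all tested genes, with medians of -0.11 and -0.13 against -0.05. With median-of-ratios scaling or quantile normalization 56 did, where the medians over all genes were 0.0034 and 0.0129. Without adjustment 8 members were below 0 and 0 above at a p under 0.05, against 6.05% and 2.35% of all genes. That count below 0 ran from 3 without KO untrained 3 (all genes 3.79%) to 19 without KO untrained 4 (all genes 10.6%). Many markers of other cells lay below 0 in the same comparison: all 10 slow and oxidative fibre genes (median -1.52, 9 at an unadjusted p under 0.05) and all 8 tested tendon genes (median -1.10, 7 at that p). So did all 7 adipocyte genes (-0.89), all 5 tested nerve genes (-0.66), all 6 endothelial genes (-0.15) and all 5 macrophage genes (-0.26). Skeletal muscle markers lay above 0 in 7 of 8 cases (median 0.17, 3 at an unadjusted p under 0.05), and blood genes in 2 of 3. The part of all these markers in the members' values was not tested. In 40 members (52.6%) the difference with training was above 0 in WT and below 0 in KO, against 29.8% of all genes. The leading members were Mrpl41 (log2 -0.44, SE 0.15, limma adjusted p = 0.526), Mrpl3 (-0.34, SE 0.12, adjusted p = 0.526), Mrps17 (-0.22, SE 0.09, adjusted p = 0.55) and Mrps9 (-0.26, SE 0.12, adjusted p = 0.574). Mrpl41 measured 5.97, 6.24, 5.89 and 6.02 RPKM in WT untrained and 6.90, 6.54, 7.04 and 5.35 in KO untrained mice. Set beside its trained values given above, its mean was higher in trained than untrained WT mice (6.86 against 6.03) and lower in trained than untrained KO mice (5.39 against 6.46).

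Averaged over both genotypes, 45 of 76 members were lower after training, against 58.3% of all genes. With median-of-ratios scaling 36 were lower and with quantile normalization 27, where the medians over all genes were -0.0053 and -0.0025. Without such scaling the medians were -0.01 in the large and -0.02 in the small subunit, against -0.02 over all genes. Limma called 0 members, against 0.777% of all genes, and voom 0. At an unadjusted p under 0.05, 3 members were higher and 6 lower, against 7.19% and 10.8%. The smallest adjusted p from limma were those of Mrpl50 (log2 0.11, SE 0.04, adjusted p = 0.129), Mrps18c (-0.15, SE 0.05, adjusted p = 0.133), Mrpl54 (-0.20, SE 0.07, adjusted p = 0.137) and Mrps21 (-0.17, SE 0.06, adjusted p = 0.155). Mrpl54, found in mitochondria only, measured 58.8, 67.1, 65.7 and 59.1 RPKM in WT untrained, 64.6, 56.0, 53.6 and 44.9 in WT trained, 55.3, 53.1, 60.1 and 48.9 in KO untrained and 46.8, 45.0, 46.3 and 52.4 in KO trained mice. In both genotypes its ranges overlapped between untrained and trained mice. Those 4 genes passed when WT trained 1 was left out, with adjusted p from limma of 0.0397, 0.0438, 0.0204 and 0.00707 for Mrpl50, Mrps18c, Mrpl54 and Mrps21. In that setting 8 of 76 members were called, and 1044 of all genes against 79 with all libraries. With weights for each library 6 of 76 members were called, and 1152 of all 10171 genes.

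**Figure D5:**
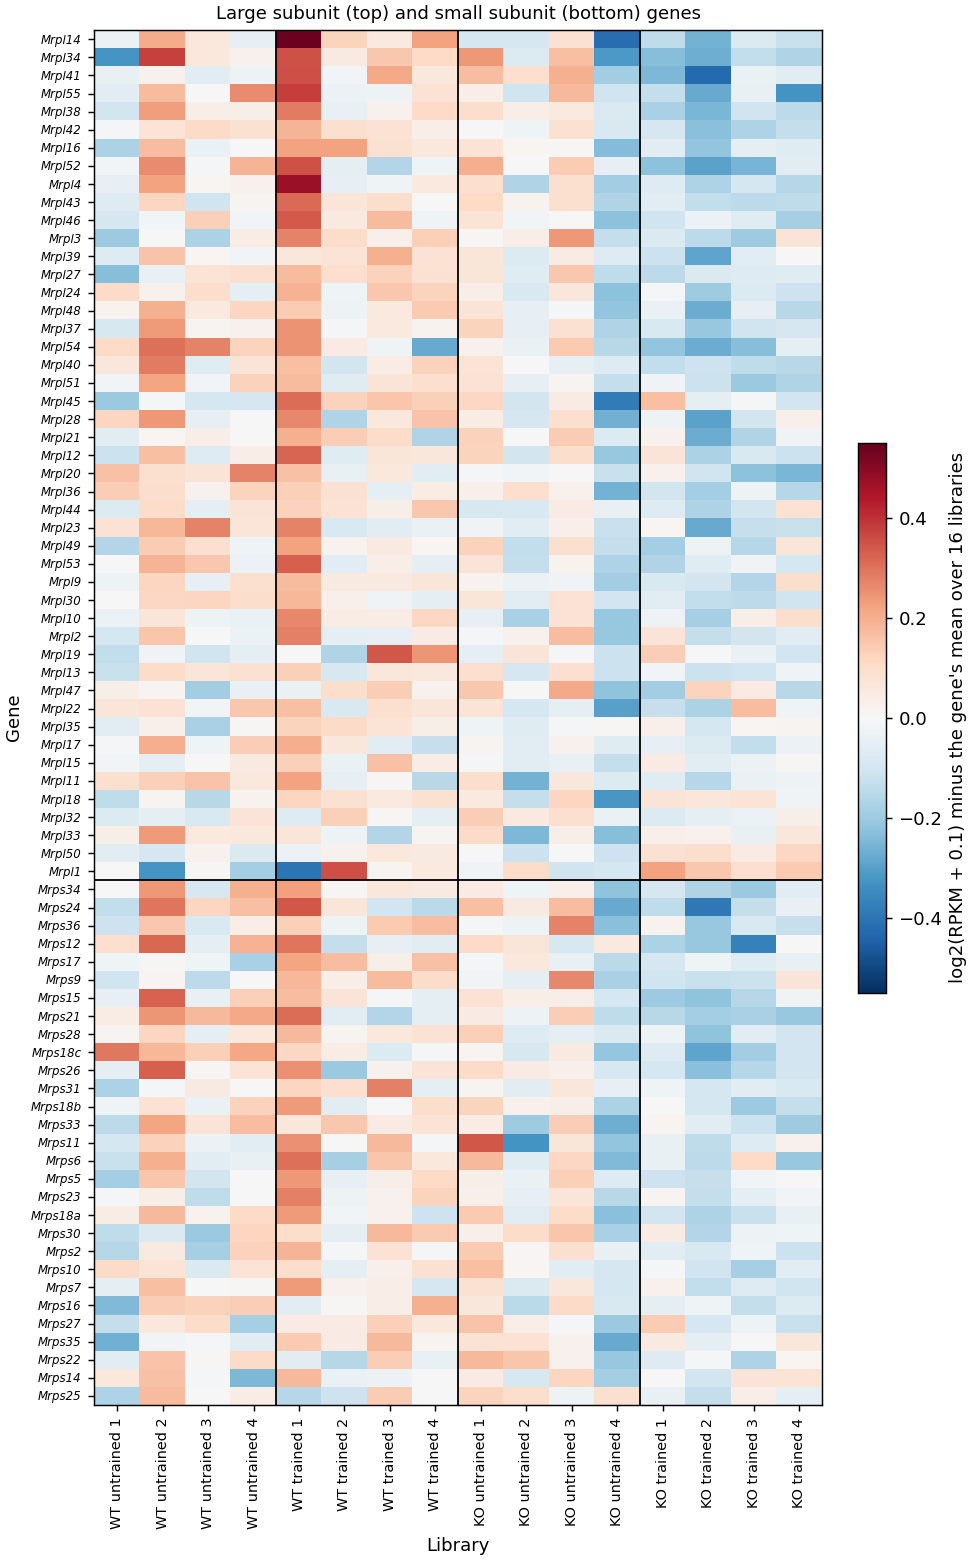
Deviation of each member (rows, large subunit above the line) in each library (columns) from its mean over 16 libraries, in log2(RPKM + 0.1); red is above and blue below the mean, and rows are ordered by the KO minus WT difference in trained mice. WT trained 1 is red and KO untrained 4 blue along nearly the whole column, with 69 and 2 of 76 members above their median, and KO trained libraries are mostly blue, with 5 to 19.

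Several members have relatives or close copies. The 3 Mrps18 genes encode related proteins that take different places: Mrps18c and Mrps18b in the small subunit and Mrps18a in the large. Their mean levels over all libraries were 28.3, 30.9 and 51.0 RPKM, and in trained mice they differed between KO and WT by -0.18, -0.18 and -0.14 (limma adjusted p = 0.273, 0.315 and 0.435). Among untrained mice the values were -0.26, -0.03 and -0.10. Mrps30, another protein of the large subunit despite its name, differed by -0.13 in trained mice (SE 0.09, limma adjusted p = 0.481), and Mrps36 by -0.20 (SE 0.09, adjusted p = 0.324). Placing members by where the protein sits gave 49 large and 26 small subunit genes with medians of -0.17 and -0.17 in that comparison. Mrpl44, which carries an RNase III fold, differed by -0.16 (SE 0.06, limma adjusted p = 0.286) and Mrpl12 by -0.17 (SE 0.09, adjusted p = 0.408).

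Reads of some members can be confused with those of other genes. In GENCODE M21 annotation 32 members have exons that overlap another gene, 27 of them on the other strand, and whether counting used strand is not given in the sources used here. A further search found pseudogene copies of at least 95% identity over at least 200 bases for 17 members, including Mrpl42 (Gm6419), Mrps21 (Gm6181), Mrpl41 (Gm6434) and Mrpl23 (Mrpl23-ps1), so their levels are uncertain. Mrpl14 overlaps Tmem63b on the other strand, and Mrps18c overlaps Gm43511 on its own. The 33 members with neither an overlap nor a copy had a median of -0.18 between KO and WT trained mice, with 31 below 0 and 16 lower at an unadjusted p under 0.05. Members ran from 407 to 6712 bases in solved length, with a median of 1053. Among trained mice the 32 members under 1000 bases had a median of -0.18, with 53.1% lower at an unadjusted p under 0.05, against -0.12 and 22.2% over the 779 tested genes of such length. The 44 longer members had a median of -0.16 with 40.9% lower, against -0.05 and 8.56% over longer tested genes.

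Other genes of mitochondrial translation were read from the same fit. The 7 proteins of the mitochondrial ribosome with other names had 6 lower in KO trained mice, 4 of them at an unadjusted p under 0.05, with a median of -0.20. Among them Mrp63 measured 7.37, 6.13, 6.16 and 6.62 RPKM in WT trained and 5.82, 5.85, 5.37 and 5.70 in KO trained mice, with no overlap (log2 -0.20, SE 0.09, limma adjusted p = 0.323), and Aurkaip1 differed by -0.24 (SE 0.08, adjusted p = 0.237). Ptcd3 differed by 0.04 (adjusted p = 0.846). Of all tested genes 65.2% were lower, with a median of -0.05, and the shares of the next lists are given beside that. Of 26 assembly factors 20 (76.9%) were lower, with a median of -0.08, of 15 translation factors 13 (86.7%, -0.10), of 21 mitochondrial tRNA synthetases 15 (71.4%, -0.05) and of 17 genes of mitochondrial DNA transcription, replication and nuclear regulation 12 (70.6%, -0.06). General markers of mitochondrial content were also lower, 13 of 14 with a median of -0.12. At an unadjusted p under 0.05, 6 of these 14 (42.9%) were lower, beside 46.1% of the 76 members and 9.65% of all genes. Without overlap between groups 7 of the 14 were lower, beside 22 of the 76 members. Lower at that p were 7.69% of assembly factors, 6.67% of translation factors, 9.52% of tRNA synthetases and 0% of the regulators. No gene of these lists passed the test in that comparison. The cytosolic ribosomal proteins, 79 tested of 82, had a median of -0.05 with 62 lower (78.5%).

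Training showed another order of these lists. In WT mice, where 52.4% of all genes were higher, content markers had a median of 0.16 with 12 of 14 higher. Translation factors had 0.08 (13 of 15) and regulators 0.11 (13 of 17). Assembly factors had 0.05 (16 of 26), tRNA synthetases 0.04 (15 of 21) and mitochondrial ribosomal proteins with other names 0.01 (4 of 7). These values stand beside the fibre and tendon markers that were higher in the same mice, given above, whose part was not tested. The median was 0.05 over the 76 members and -0.13 over cytosolic ribosomal proteins, of which 76 of 79 were lower. In KO mice content markers stood at 0.03, regulators at -0.04, translation factors at -0.02 and the members at -0.08. Assembly factors stood there at -0.002, tRNA synthetases at -0.04 and the proteins with other names at -0.13. Cycs, cytochrome c, was the only gene of the 6 mitochondrial lists past the threshold in any comparison. It rose with training averaged over both genotypes (log2 0.25, SE 0.04, limma adjusted p = 0.0137), and measured 106.1, 116.6, 102.6 and 106.1 RPKM in WT untrained, 116.1, 125, 128.4 and 136.2 in WT trained, 108.2, 99.95, 104.8 and 97.32 in KO untrained and 125.9, 124 and 127.1 in KO trained 1 to 3, with KO trained 4 lower than these. Every trained KO value lay above every untrained KO value, and in WT the ranges overlapped, from 102.6 to 116.6 and from 116.1 to 136.2 RPKM. Hspd1, the mitochondrial chaperonin, differed by 0.21 (SE 0.05, limma adjusted p = 0.0559), Mtif2, the initiation factor, by 0.20 (SE 0.05, adjusted p = 0.0601) and Gtpbp10, a GTPase of large subunit assembly, by 0.25 (SE 0.06, adjusted p = 0.0613). Gabpa, the DNA-binding part of GABP, whose motif is printed above for Mrpl3, differed by 0.11 (SE 0.05, limma adjusted p = 0.238).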

How the data were processed

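Gene expression was measured by poly(A) RNA sequencing in 16 libraries, 4 mice in each of 4 groups. The authors deposited 1 table of RPKM values (a read count divided by gene length and sequencing depth), per the file headers. Per the submitters' processing notes reads were placed on mm10. Which aligner, counter and annotation were used, and whether strand was, is not given in the sources used here. RPKM rather than counts were deposited, so no count model was the main test. Reads were recovered from the steps between low values: 99.9996% of 238919 values above 0 came out whole within 0.01 read, and library totals were 16307025 to 20074677 reads. That recovery served voom, which called 0 of the 76 members in each comparison.

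The 10171 genes that reached 1 RPKM in 4 or more libraries were fitted with limma 3.58.1 (trend, robust; statmod 1.5.0, R 4.3.3) on log2(RPKM + 0.1), a scale that understates changes of low genes, with 1 mean per group and 7 contrasts. P-values were adjusted by Benjamini-Hochberg over all tested genes, two-sided, with a threshold of 0.05. The fit was tested on simulated data. Copies were searched with blastn 2.17.0, and figures and tables used Python 3.11.15, NumPy 2.4.6, pandas 2.3.3 and matplotlib 3.10.9.

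Named members were the 2 of each subunit with the smallest p in each contrast, the 3 highest and 3 lowest by level in each subunit, and 7 named for their place or relatives. From each other list at most 3 genes with the smallest p with training in WT or KO were named. Members and lists were chosen with earlier results of these data known. Other genes are said to have been named after their values were seen, or stand with their list. Alternatives were other scalings, pseudocounts, filters, thresholds, library weights, a replicate block, pairwise fits, another subunit assignment, and each library left out. Replicate numbers in the labels were not treated as pairs of mice in the main fit, and no pair of libraries agreed within sampling noise.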

Additional observations from a re-analysis of the deposited data

Results flagged for a closer look

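In 6 of 120 series of a named member in a group of 4 mice, 1 library lay far from the other 3, where chance alone gives about 1 in 20. Over all 76 members 20 of 304 series did. Mrpl45 was 24.4 RPKM in WT trained 1 against 21.5 to 22.0 in the other WT trained mice, and Mrpl23 was 81.2 RPKM in the same library against 63.3 to 65.5. Both lay high in the library in which most members were high. Mrpl20 was 30.02 RPKM in KO untrained 4 against 32.4 to 32.8, in the library in which nearly all members were low. Mrps17 was 14.6 RPKM in WT untrained 4 against 16.3 to 16.7. Mrps9 was 18.9 RPKM in KO trained 4 against 16.5 to 16.6, and Mrps28 was 46.5 RPKM in KO untrained 1 against 40.2 to 40.9.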

How the results depend on the processing

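Medians near 0 changed sign with single libraries left out: the small subunit median in untrained KO against WT mice was 0.03 without KO untrained 4, and the large subunit median for training averaged over both genotypes ran from -0.03 to 0.02. The count of members lower at an unadjusted p under 0.05 in KO against WT trained mice was 35 with all libraries, 22 with quantile normalization and 19 to 43 with 1 library left out, lowest without WT trained 1. In KO against WT averaged over both training states it was 32, 19 to 37 with 1 library left out, and 16 with WT trained 1 and KO untrained 4 both set aside, the setting chosen after seeing the data. Members called by limma at an adjusted p under 0.05 with training in WT mice numbered 1 with library weights (all genes 329). They numbered 0 to 1 with 1 library left out (all genes 0 to 272) and 1 with both libraries set aside (all genes 375). The member called was Mrps21 each time. With training in KO mice 4 were called with both set aside, where 384 of all genes were. With training averaged over both genotypes 2 members were called with quantile normalization (Mrpl45 and Mrpl18), where 252 of all 10171 genes were. With library weights 6 were called (all genes 1152). With 1 library left out 0 to 8 were called (all genes 18 to 1044), and 10 with both set aside (all genes 1460). Replicate numbers were not treated as pairs of mice in the main fit. Correlations of deviations between same-numbered libraries ran from -0.18 to 0.44, 6 of 24 over 0.1. Between libraries with other numbers they ran from -0.39 to 0.21, 13 of 72 over 0.1, so these values do not settle whether numbers pair mice. With the replicate block 34 members were lower at an unadjusted p under 0.05 in KO against WT trained mice, against 9.02% of all genes. Averaged over both training states 28 were, against 7.58%.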
